A study of Mus musculus with 32 samples.

Results

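The 100 cDNA clones described here had a higher log ratio in serum-starved than in basal samples in every combination of cell line and polysome fraction. They were chosen by measured values, from 15169 clones with no missing value of 15247 on the array. For each clone the starved minus basal difference was taken in 4 strata, the heavy and the light fraction of NIH 3T3 and of NIH 3T3/4E cells. Clones were kept where the size of the mean of these 4 differences exceeded both the mean heavy minus light and the mean 4E minus NIH 3T3 difference, which left 4115 clones, 879 of them with 4 positive differences. These were ranked by the smallest of the 4 differences and the first 100 were taken. The starved minus basal values below are therefore a description of the choice and not a test of it.

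NIH 3T3 is a mouse fibroblast line, and NIH 3T3/4E (4E in the sample names) overexpresses the translation initiation factor eIF4E from an ectopic source. The labels do not give the promoter or say whether the line is 1 clone. Both lines were taken in complete growth medium (basal) or after 16 h without serum (starved), and each lysate was split on a gradient into a light pool (fractions 4 to 6) and a heavy pool (fractions 7 to 10). The series holds 32 columns, 4 in each of the 8 groups of line, fraction and serum state. They were averaged in pairs in which 1 column was never below the other. What the 2 columns of a pair are is not stated. Each pair is called 1 sample here, which gives 2 samples a group and 16 in all. All were hybridised against 1 common reference of unfractionated poly(A) RNA from NIH 3T3 cells in full medium. Nothing in the labels ties the 2 samples of a group to separate cultures, and the tests therefore measure only the spread between these samples, which may be technical.

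A transcript bound by several ribosomes sediments deep in a sucrose gradient, and one with few or none stays near the top. The heavy pool therefore holds the better translated messages and the light pool the poorly translated ones. eIF4E binds the cap of a messenger RNA and recruits the other initiation factors, and its activity is held down by 4E-binding proteins when growth factors are withdrawn. Serum withdrawal stops fibroblast growth and can start apoptosis, which excess eIF4E counters.

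The values are log ratios between a polysome sample and the reference, taken as log2 and centred on each sample's median. The sources used here do not say which of these is the numerator. A positive difference is thus a higher deposited value, not necessarily more RNA. Clone IDs stand without gene names, and a search of RefSeq's mouse gene table matched 0 of them, so no gene, fibroblast marker or sequence is given and eIF4E itself could not be checked. Clones are named by ID or by their rank in the list.

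The files also hold a split between samples, here called the control-row split, and the labels do not say what made it. For 2 control rows, the 8 NIH 3T3 basal or 4E starved samples have values, whereas the 8 from starved NIH 3T3 or basal 4E cells are empty. Starved minus basal crosses this split in each line, in opposite directions, and within 1 line serum and split cannot be told apart. The mean over both lines holds each side equally often among starved and basal samples. Within 1 serum state 4E minus NIH 3T3 crosses the split too, and there line and split cannot be told apart. Heavy and light samples of a state lie on 1 side. The second sample of 4E heavy starved cells had the widest spread over all clones, with a median absolute deviation of 0.739 against 0.465 to 0.682 in the other 15 samples.

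The members differed by sample much as the rule asks. Their median value lay between -0.75 and 0.31 in the 8 basal samples and between 0.57 and 1.55 in the 8 starved samples, with no overlap. By group, the basal medians were 0.08 in NIH 3T3 heavy, -0.33 in NIH 3T3 light, -0.17 in 4E heavy and -0.62 in 4E light samples. The starved medians were 1.20 in NIH 3T3 heavy, 0.79 in NIH 3T3 light, 1.33 in 4E heavy and 0.78 in 4E light samples. The basal medians were thus near or below 0, which after centring is the median clone of each sample. A level against the reference cannot be read from them. Heavy samples stood above light ones in each line and serum state.

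**Figure D1:**
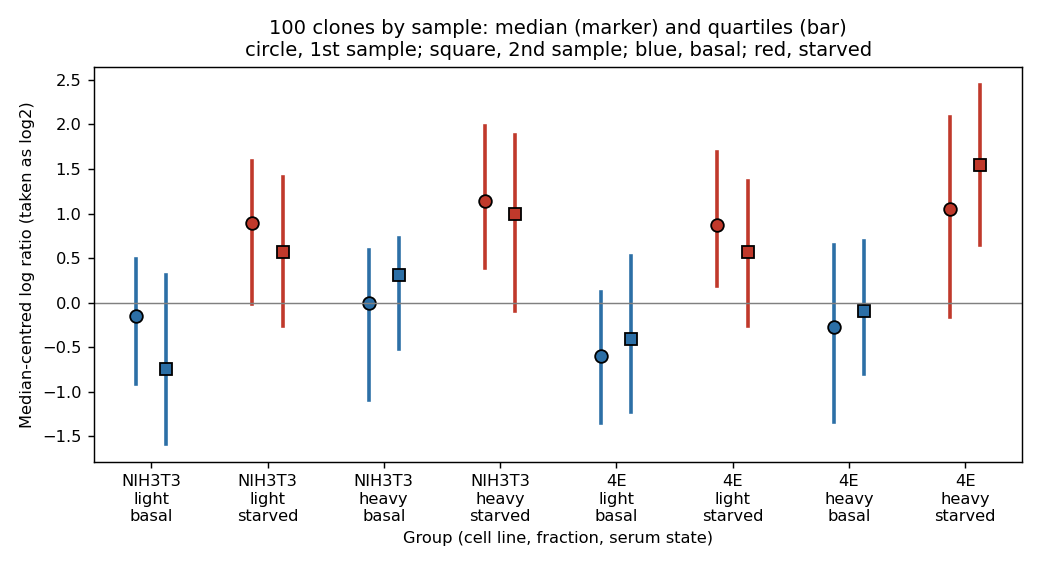
Median (marker) and quartiles (bar) of the log ratios of the 100 clones in each of the 16 samples, by group on the x axis, with basal samples in blue and starved samples in red. All 8 starved medians (0.57 to 1.55) lie above all 8 basal medians (-0.75 to 0.31), and within each line and serum state the heavy group's median of group means is above the light one's.

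The members did not share 1 level. In 30 of them the basal mean was below 0 and the starved mean above it, in 47 both means were above 0, and in 23 both were below 0. The mean over the 16 samples ran from -2.52 to 2.45, with a median of 0.50 (0.03 over all clones). A member's highest group was 4E heavy starved in 41 cases, NIH 3T3 heavy starved in 36, 4E light starved in 13 and NIH 3T3 light starved in 10. Its lowest group was 4E light basal in 42, NIH 3T3 light basal in 27, NIH 3T3 heavy basal in 17 and 4E heavy basal in 14.

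**Figure D2:**
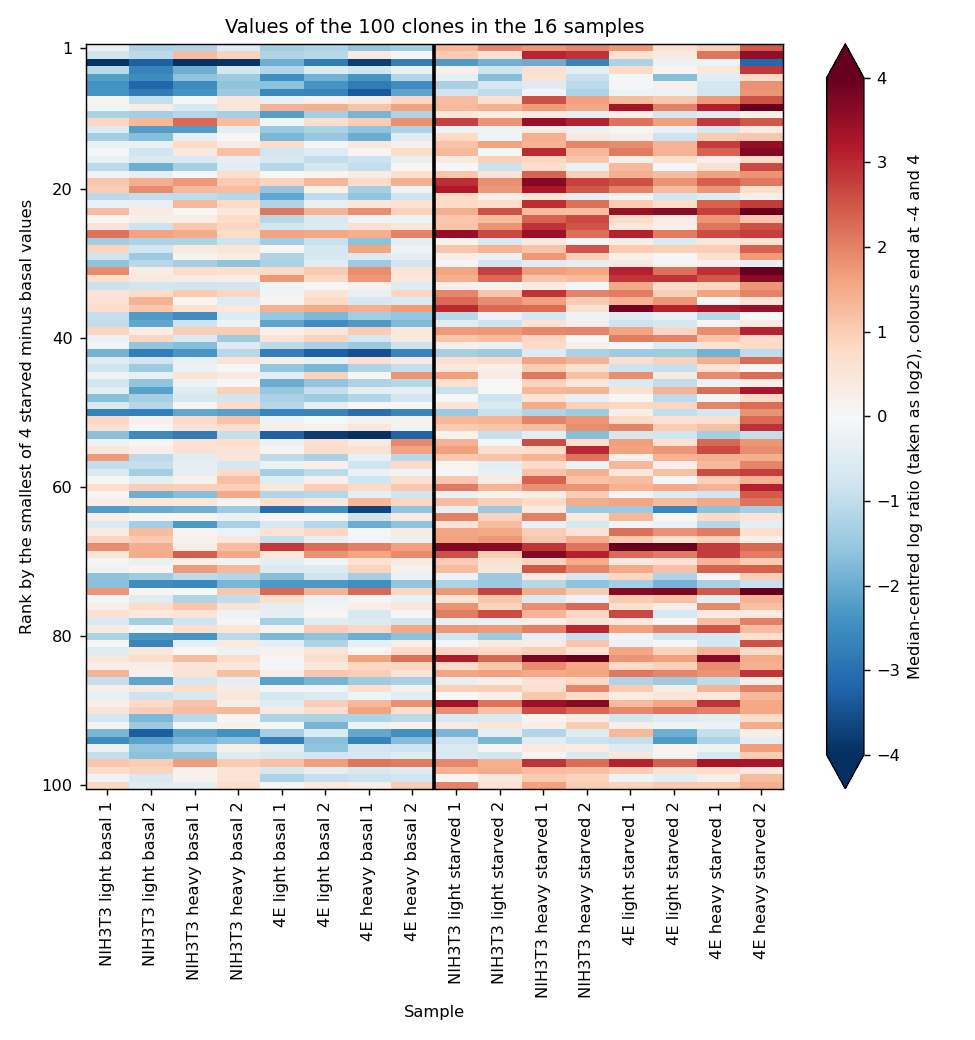
Log ratios of the 100 clones (rows, by rank) in the 16 samples (columns, basal left of the line and starved right of it), with colours that end at -4 and 4. The rows change towards red from left to right at very different levels: 47 members are above 0 in both serum states and 23 below 0 in both.

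The mean starved minus basal difference ran from 0.77 to 2.68 over the members, with a median of 1.22. It was above 2 in 4 members and below 1 in 23. Standard errors were 0.15 to 0.49. In the limma fit of all clones 80 members had a positive difference at an adjusted p under 0.05, where 1.75% of all clones did. The rule used this contrast, so nothing is read from that count. The 20 members that did not pass had adjusted p values up to 0.363, and 17 of them were in the lower 50 ranks, of which 33 passed, against 47 of the upper 50. In 13 members every starved sample was above every basal sample, which held for 17 clones, or 0.112%, of all tested.

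Clone H3128D02 ranked first, with 2.37 as its smallest stratum in the centring of the rule. Its basal samples were -1.17 and -0.53 in NIH 3T3 heavy, -0.24 and -1.23 in NIH 3T3 light, -1.58 and -1.41 in 4E heavy, and -1.36 and -1.21 in 4E light. Its starved samples were 1.75 and 1.95 in NIH 3T3 heavy, 1.34 and 1.93 in NIH 3T3 light, 0.97 and 2.46 in 4E heavy, and 1.74 and 0.62 in 4E light. All 8 starved samples were thus above all 8 basal ones. The mean difference was 2.68 (SE 0.25, limma), and this clone showed little of either other factor, at 0.11 for heavy minus light and -0.44 for 4E minus NIH 3T3.

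Clone H3013C04 ranked second and was also the member with the most positive heavy minus light difference. Its heavy samples were 1.23 and 0.93 in NIH 3T3 basal, 3.05 and 2.90 in NIH 3T3 starved, 0.35 and -0.06 in 4E basal, and 2.13 and 3.52 in 4E starved. Its light samples were -0.79 and -1.04, 1.03 and 0.57, -1.22 and -1.11, and 0.59 and 0.35 in the same order. Within each line and serum state both heavy samples were above both light ones. Starved minus basal was 1.98 (SE 0.20) and heavy minus light 1.96 (SE 0.20), so the clone lay just under the cap that the rule sets on the fraction difference.

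The list ended without a step. The last clone inside, H3118B10, had a smallest stratum of 0.6105, and the first outside, H3127A04, had 0.6090. Their mean differences were 0.89 (SE 0.26) and 0.83 (SE 0.33). Of the clones outside, H3133A03 and H3153D08 had the profile most like the members' median profile, with Pearson's r of 0.974 and 0.967 over the 8 group means. They ranked 148 and 337 by the rule, with mean differences of 0.71 (SE 0.21) and 0.57 (SE 0.19).

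The order of the 4 strata changed from member to member. The median difference was 1.12 in NIH 3T3 heavy, 1.07 in NIH 3T3 light, 1.34 in 4E heavy and 1.23 in 4E light samples. 4E heavy was the largest stratum in 50 members, NIH 3T3 heavy in 23, 4E light in 14 and NIH 3T3 light in 13. The largest difference was 1.90 times the smallest in the middle member, and 1.11 to 4.57 times over all members. The difference was larger in 4E than in NIH 3T3 cells in 65 members and larger in the heavy than in the light fraction in 74, against 50.1% and 51.7% of all clones. Among the 779 clones under the cap that were positive in all 4 strata but not chosen, the shares were 57.3% and 57.8%. The rule ranked by these strata. The comparison of 4E with NIH 3T3 coincides with the control-row split, and the lines and that split cannot be told apart in it. Over all clones the 4E heavy difference also had the widest spread, with an SD of 0.707 against 0.558 to 0.587 in the others. Its part in the order of the strata was not tested.

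**Figure D3:**
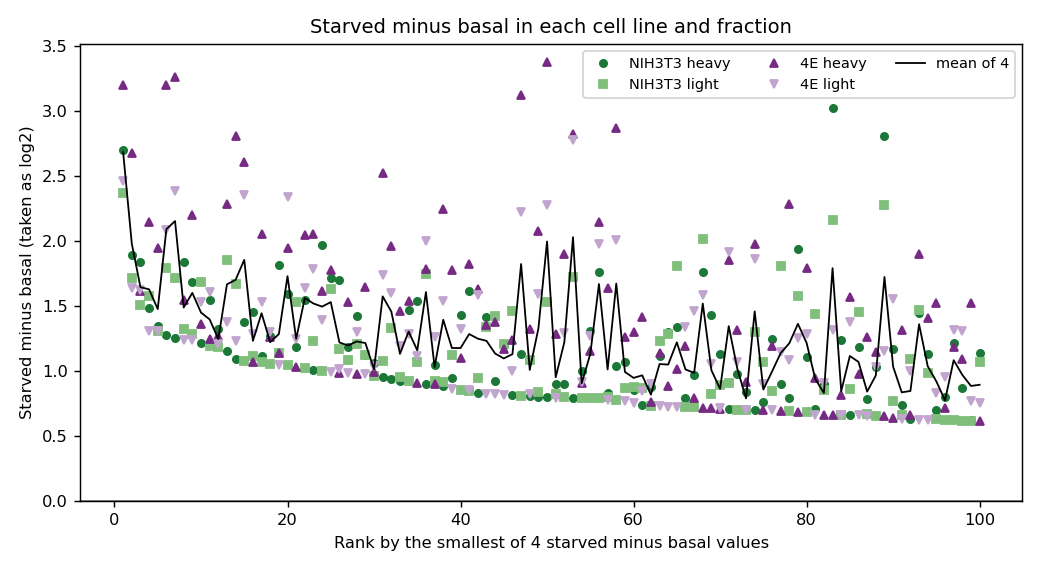
Starved minus basal difference (y axis) of each of the 100 clones by rank (x axis) in NIH 3T3 heavy, NIH 3T3 light, 4E heavy and 4E light samples, with their mean as a line. The lower edge of the points is the ranking itself, and 4E heavy is the highest of the 4 values in 50 clones.

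Single strata, with 2 samples against 2, reached the threshold less often. In 4E heavy samples 24 members were called positive by limma (1.42% of all clones), and 77 had an unadjusted p under 0.05. In NIH 3T3 heavy samples 3 were called (0.132%), and 57 had an unadjusted p under 0.05. In the light fraction 0 members were called in NIH 3T3 (0.0132% of all clones; 49 members had an unadjusted p under 0.05) and 0 in 4E (0.0857%; 65 members had an unadjusted p under 0.05). The 3 in NIH 3T3 heavy were ranks 1, 24 and 83. No member was called in more than 2 strata, and 75 were called in none. These counts rest on few samples. The 24 fell to 3 without the second 4E heavy basal sample, and the 3 fell to 0 without the first NIH 3T3 heavy basal sample or either NIH 3T3 heavy starved one, and rose to 5 without either 4E heavy starved one. Leaving out either 4E heavy starved sample also gave 4 calls in 4E light. The rule used these strata too, and p values were adjusted for 1 stratum at a time. The counts are thus not a comparison of fractions or lines.

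The cell line by serum term asks whether the response to starvation differed between the lines. It passed in 1 member, H3153E07 of rank 58 (2.65% of all clones were positive for it), a clone named after its values were seen. Its starved minus basal differences were 1.04 and 0.78 in NIH 3T3 heavy and light samples and 2.87 and 2.01 in 4E heavy and light samples. The term was 1.53 (SE 0.40, limma adjusted p = 0.0449). The call was lost in 5 of 9 other settings and without any 1 of 13 of the 16 samples, with adjusted p values up to 0.102. A rule that ranks by the smallest stratum favours clones with similar strata, and this term coincides with the control-row split. The serum by fraction term passed in 0 members and in 0% of all clones by limma, positive or negative (0 members and 361 clones at an unadjusted p under 0.05).

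The ranking did not ask for a fraction pattern. The rule caps the size of the heavy minus light difference at that of the serum difference but does not set its sign, and 79 of the 100 members had a positive mean difference, against 51.0% of all clones. Its median was 0.47 over the members and 0.01 over all clones. It ran from -1.10 to 1.96, and its size was 48.3% of the serum difference in the middle member. By limma, 27 members were called positive (9.30% of all clones) and 6 negative (8.78%). Because the cap removed members with larger fraction differences, these counts are given as a description.

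The sign held across states in most members, while 6, 9 and 19 members were positive in 1, 2 and 3 of the 4 states. The heavy minus light difference was positive in all 4 states of line and serum in 53 members and in none of them in 13, against 19.3% and 17.1% of all clones. The median over the members was 0.36 in NIH 3T3 basal, 0.48 in NIH 3T3 starved, 0.27 in 4E basal and 0.66 in 4E starved cells, and 70 to 77 members were positive in each. On the side of the control-row split with control values the median was 0.49, and on the other side 0.39. Single states passed rarely, with 4 members in 4E starved (ranks 2, 22, 25 and 58; 0.672% of all clones) and 1, H3013C04, in NIH 3T3 starved (0.191%). The 4 became 0 without the second 4E heavy starved sample, either 4E light starved sample or either 4E heavy basal sample and 11 without the first 4E heavy starved sample. The call of H3013C04 in NIH 3T3 starved was lost without any 1 of 13 of the 16 samples. In 0 members was every heavy sample above every light one, which held for 1.65% of all clones. The rule fixes that 0, because it keeps only clones whose serum difference exceeds the fraction difference. Their starved light samples then exceed their basal heavy ones on average.

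Other measures were set beside the fraction difference. In 54 members the 2 columns of every sample were unequal, which held for 19.9% of all clones. These 54 members had a median heavy minus light difference of 0.61, with 79.6% positive against 79% of all members. Over all 3018 clones with unequal columns it was 0.08, with 54.3% positive. Members also stood higher on average than most clones, and the 1396 clones whose mean over the samples exceeded the members' median had a median of 0.08, with 53.9% positive. The part of these measures in the members' fraction difference was not tested. In the mirror list, the 100 clones with the steadiest negative starved minus basal differences, the median was 0.06 with 55 positive. Both lists come from the same samples, and the difference between them was not tested. The 779 clones under the same cap that were positive in all 4 strata but not chosen lay between, with a median of 0.11 and 65.6% positive.

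The 27 members called positive for the fraction were spread from rank 2 to rank 99 and had a median serum difference of 1.34. Their median values were -0.39 in NIH 3T3 light basal, 0.41 in NIH 3T3 heavy basal, 0.72 in NIH 3T3 light starved and 1.66 in NIH 3T3 heavy starved samples. In 4E cells the same 4 medians were -0.76, 0.32, 0.79 and 2.08. For these clones starved light samples thus stood near or somewhat above basal heavy ones, and starved heavy samples stood highest. The cap of the rule and the choice by a positive fraction call largely set this order, so it is a description.

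The 6 members called negative had the reverse order by fraction. Their median values were 0.57 in NIH 3T3 light basal, -0.61 in NIH 3T3 heavy basal, 1.36 in NIH 3T3 light starved and 0.59 in NIH 3T3 heavy starved samples. In 4E cells they were 0.57, -0.18, 1.79 and 0.72. In all 6 the heavy minus light difference was negative in each of the 4 states. They lay between ranks 35 and 75.

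Clone H3121E08, rank 68, had the most negative fraction difference. Its light samples were 1.90 and 1.45 in NIH 3T3 basal, 3.72 and 3.65 in NIH 3T3 starved, 2.82 and 2.23 in 4E basal, and 4.27 and 3.95 in 4E starved. Its heavy samples were 0.25 and 1.23, 2.86 and 2.14, 2.01 and 1.64, and 2.80 and 2.29 in the same order. Both light samples were above both heavy ones in each state, although the fractions overlapped over all 16 samples. Heavy minus light was -1.10 (SE 0.20), beside a starved minus basal difference of 1.52 (SE 0.20).

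**Figure D4:**
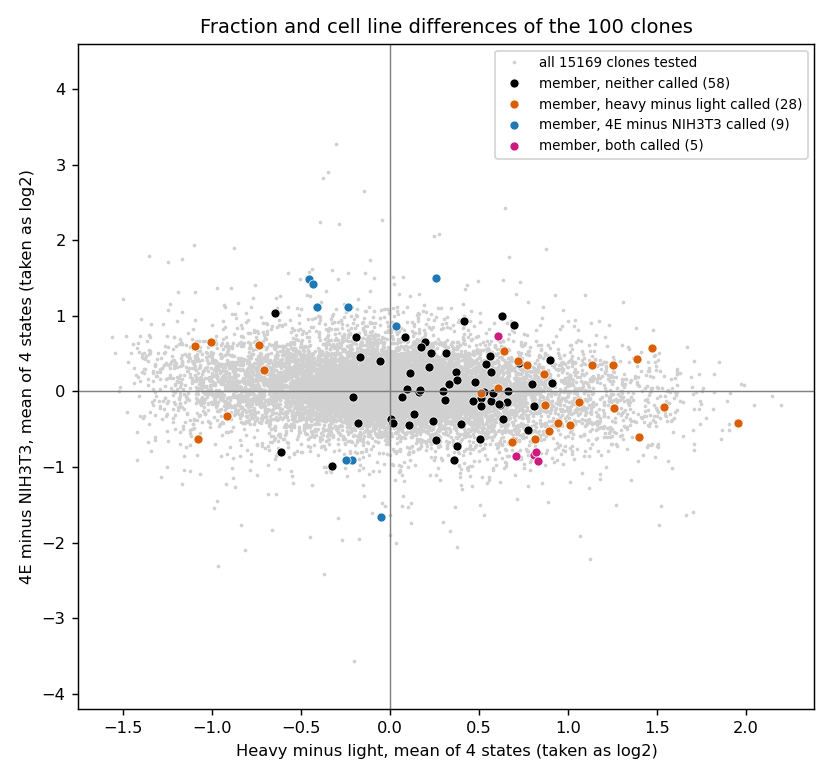
Mean heavy minus light difference (x axis) against mean 4E minus NIH 3T3 difference (y axis), with all 15169 clones in grey and the 100 members coloured by which of these differences limma called at an adjusted p under 0.05. The members lie mostly right of 0 (79 of 100) and evenly above and below 0 (49 and 51).

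By cell line the members had no common sign. The mean 4E minus NIH 3T3 difference was positive in 49 members and negative in 51, with a median of -0.01 (0.01 over all clones) and a range of -1.66 to 1.50. Single members differed widely, with an SD over members of 0.60 against 0.35 over all clones, and the difference had 1 sign in all 4 strata in 56 members (26 positive, 30 negative). Over all clones 9.49% were positive and 8.72% negative in all 4. By limma 7 members were called positive (1.26% of all clones) and 7 negative (1.36%), again under the cap. The 7 positive calls became 4 without the first 4E light basal or the first NIH 3T3 light starved sample, and both signs together went from 14 to 9 without either of these 2. Leaving out the second 4E light basal, the first 4E light starved or the second NIH 3T3 heavy starved sample also gave 4 positive calls. In single strata 1 member was called by limma, rank 23, H3134E06, with 2.23 (SE 0.51) in heavy starved samples, where 0.686% of all clones were positive. That clone is named because it was the only one. In starved samples the lines lie on different sides of the control-row split, and line and split cannot be told apart. The call was lost without any 1 of 10 of the 16 samples, and without the first 4E heavy starved sample 9 members were called positive there.

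The 7 members called positive for the line had median values of 0.26 in NIH 3T3 heavy basal, 0.77 in NIH 3T3 light basal, 1.25 in NIH 3T3 heavy starved and 1.83 in NIH 3T3 light starved samples. In 4E cells they stood at 1.38, 1.41, 3.36 and 2.88. The 7 called negative went from 0.31, 0.15, 1.23 and 1.15 in NIH 3T3 to -0.74, -0.85, 0.52 and 0.55 in 4E cells, in the same order. In both sets all 4 line differences of every member had the sign of the mean, by which the sets were chosen.

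Clone H3151F06, rank 9, had the most positive line difference. Its 4E samples were 1.14 and 1.61 in heavy basal, 1.38 and 1.44 in light basal, 3.14 and 4.01 in heavy starved, and 3.29 and 2.01 in light starved. Its NIH 3T3 samples were -0.60 and 0.49, -0.16 and 0.30, 1.71 and 1.55, and 1.28 and 1.43 in the same order. Both 4E samples exceeded both NIH 3T3 samples in each stratum. The mean 4E minus NIH 3T3 difference was 1.50 (SE 0.23, limma adjusted p = 0.00214, a clone chosen as the extreme).

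Clone H3097E03, rank 20, had the most negative one. Its 4E samples were -1.33 and -0.14 in heavy basal, -1.58 and 0.15 in light basal, 1.78 and 0.64 in heavy starved, and 1.99 and 1.25 in light starved. Its NIH 3T3 samples were 1.30 and 1.22, 0.97 and 1.88, 3.23 and 2.48, and 3.21 and 1.74 in the same order. The lines overlapped in light starved samples and in no other stratum. The mean 4E minus NIH 3T3 difference was -1.66 (SE 0.32, limma adjusted p = 0.0116). The 4E cells of this clone in starvation stood at 0.64 to 1.99, within or near the range of 0.97 to 1.88 of its basal NIH 3T3 samples.

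**Figure D5:**
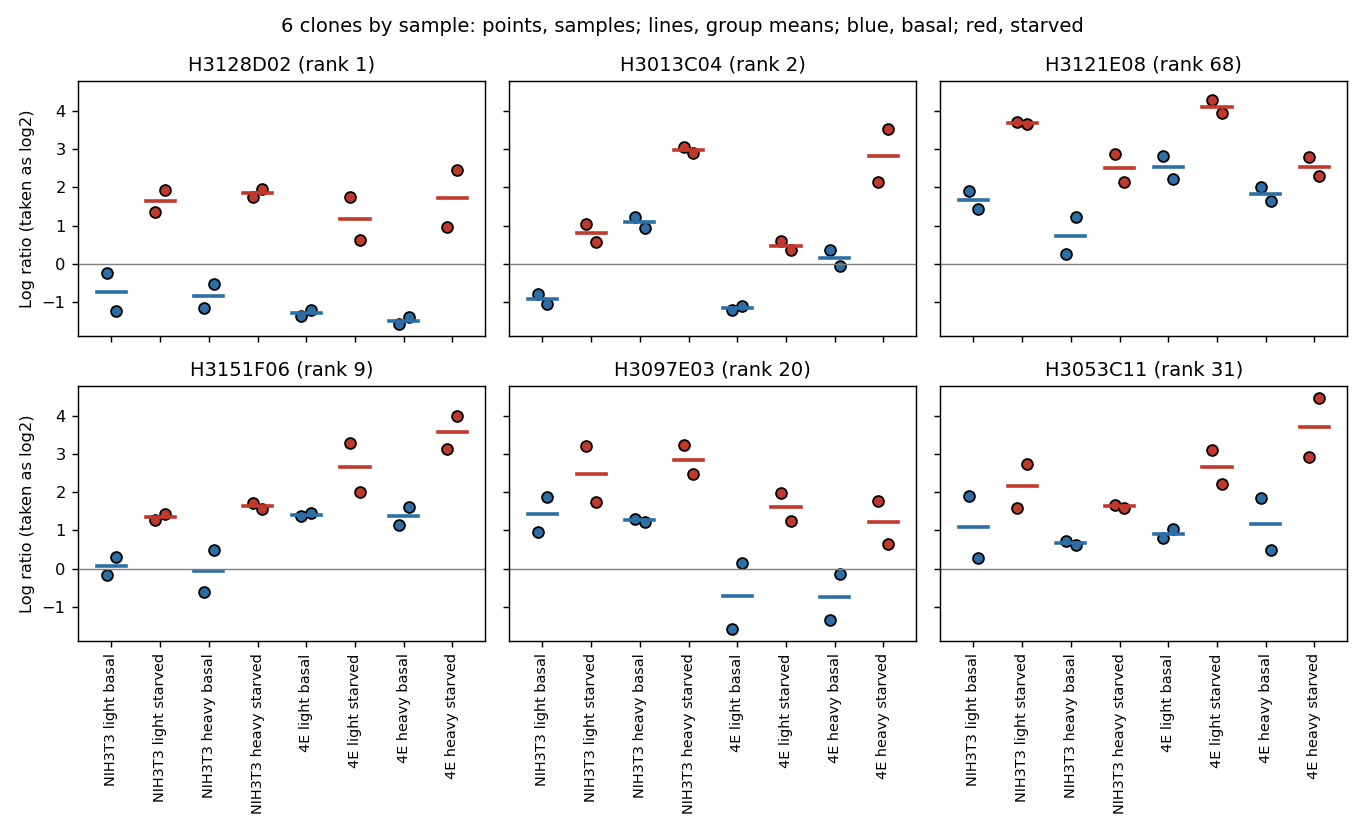
Log ratios of 6 clones (panels) by group, with the 2 samples as points, their mean as a line, basal samples in blue and starved samples in red. Starved means exceed basal means within each line and fraction in every panel, while the fraction order (H3013C04 against H3121E08) and the line order (H3151F06 against H3097E03) turn between panels.

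The cell line by fraction term, whether heavy minus light differs between 4E and NIH 3T3 cells, is the only term of the design that the rule did not use. By limma 0 of 100 members passed, and 0% of all clones passed in either direction. At an unadjusted p under 0.05 there were 0 members and 388 of all clones (2.56%). The values of the members ran from -0.96 to 1.11 with a median of 0.04 (-0.03 over all clones), and 56 were positive. Within the side of the control-row split with control values the median was 0.23, and within the other side -0.17. Within a side the lines also differ in serum state. Clone H3053C11, rank 31, had the most positive term at 1.11 (SE 0.62). Clone H3032C06, rank 93, had the most negative at -0.96 (SE 0.83). Neither passed, with a limma adjusted p of 0.998 for both. Leaving out 1 sample moved the first between 0.71 (without the first NIH 3T3 light basal sample) and 1.51, and to 0.72 without the second 4E heavy starved sample. It moved the second between -1.78 (without the second 4E light starved sample) and -0.13 (without the first), and to -0.59 without the second NIH 3T3 light basal or the first NIH 3T3 light starved sample.

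The members varied more between the 2 samples of a group than other clones. Their median residual SD was 0.51 and that of all clones 0.39, and single members ran from 0.18 to 1.27.

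Clone IDs spell a source plate and a well. The members came from 70 of the 159 plates, with 26 plates giving 2 or more and at most 3 from any 1 plate. Plates 3141 to 3159 held 22 members against 11.9% of all clones, and plates 3061 to 3080 held 5 against 12.6%. The median starved minus basal difference of all clones was 0.02 on the former plates and 0.01 on the latter. Well rows A to H each held 9 to 17 members, and well columns 1 to 12 held 2 (column 1) to 15 (column 10), against 8.32% and 8.34% of all clones in those columns. When each sample was centred within plates before the choice, 83 of the 100 clones were chosen again.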

How the data were processed

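The authors deposited log ratios, taken here as log2, between polysome RNA and a common reference; per the labels, both were hybridised competitively to 1 array. Log base, direction, scanner, background correction and normalization: not given in the sources used here. The largest absolute value was 11.3, and the lowest correlation between columns over clones was 0.02. The 32 columns form 16 pairs (title numbers 1 with 2, 3 with 4) in which 1 column was never below the other (0 exceptions at a tolerance of 1e-06), so each pair was averaged to 1 sample. Samples were centred on their medians. The rule itself centres single columns. All 15169 complete clones, and with them all 100 members, entered 1 limma fit of 8 group means (limma 3.58.1, R 4.3.3), with moderated variances, p values adjusted by Benjamini-Hochberg across all clones for 1 contrast at a time, and a threshold of 0.05. The fit was tried on simulated data with independent noise, where the planted starved minus basal and cell line by fraction differences were larger than any member's. That trial does not show its power for these data. The number of arrays limits the precision. Members, lists and tests were chosen with earlier results of these data known. Named were the top 2 ranks, the extremes of each other term, the clones at the end of the list and the 2 most alike outside it. Gene lists, which need gene names, were not run.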

Additional observations from a re-analysis of the deposited data

Results flagged for a closer look

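Cell line by serum was called positive in 2.65% and negative in 2.03% of all clones, a larger share than among the 100 members. The only member called was clone H3153E07, rank 58. Its cell line by serum term was 1.53 (SE 0.40, limma adjusted p = 0.0449), with starved minus basal differences of 2.87 and 2.01 in 4E and of 1.04 and 0.78 in NIH 3T3 cells (heavy and light). The ranking used these 4 values, and the term coincides with the split given by the control rows, so the difference between the lines and that split cannot be told apart. The call was lost in 5 of 9 other settings and without any 1 of 13 of the 16 samples. No group holds more than 2 samples, so single samples were not compared with their group for outliers.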

How the results depend on the processing

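The named clones' differences and the median heavy minus light difference kept their direction in the settings run. The median 4E minus NIH 3T3 difference, near 0, did not: over lists chosen again without 1 sample it ran from -0.10 to 0.08. For the counts that moved below, the cause was not tested where none is given. Single strata and the cell line by fraction values of single clones, which moved more when 1 sample was left out, are given beside those results. With each column as a replicate, which counts both columns of a sample, heavy minus light was called in 62 members (33 in the reported fit), 4E minus NIH 3T3 in 52 (14) and cell line by serum in 20 (1). With only clones of unequal columns in every sample, 3018 clones and 54 members were tested, and starved minus basal was called in 49 (80). All 54 were chosen again, which was fixed in advance, since their values and order stayed the same. Cell line by serum was called in 0 members under quantile normalization, scaling to 1 median absolute deviation, array weights, unequal columns and centring within source plates. H3153E07, the member called in the reported fit, was not among the clones tested with unequal columns, so its call was not tried there.

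Leaving out 1 sample at a time gave 63 to 85 calls for starved minus basal, 25 to 40 for heavy minus light, 9 to 16 for 4E minus NIH 3T3 and 0 to 4 for cell line by serum, kept 73 to 90 clones in the list chosen again, and gave a median heavy minus light difference of 0.32 to 0.53. The other settings kept 76 to 97 clones, and the choice without a cap on fraction and line differences kept 80, with a median of 0.39 and 74 positive. The alternatives for this median were chosen after seeing the data. Both terms with fraction, by cell line and by serum, were called in 0 members throughout.

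The replicate numbers gave no common pairing of samples across groups. Over 28 pairs of groups, same-numbered deviations correlated at -0.33 to 0.36, over 0.1 in 9. Heavy and light samples from 1 lysate may still be paired, under the same or another number. This check cannot exclude that, and the reported fit takes no account of it. With the replicate number as a block, starved minus basal was called in 74 members, heavy minus light in 30, 4E minus NIH 3T3 in 12 and cell line by serum in 0. In single strata the block gave 15 positive calls for starved minus basal in 4E heavy, 0 in NIH 3T3 heavy and 1 in 4E light, 1 for heavy minus light in 4E starved and 0 in NIH 3T3 starved, and 0 for 4E minus NIH 3T3 in heavy starved samples.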
